A study of Homo sapiens with 8 samples.

Results

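The genes described here are 7 genes of phosphate and pyrophosphate transport and turnover, SLC20A1, SLC20A2, XPR1, ANKH, ENPP1, ALPL and NT5E, read by symbol from a table of 21059 genes. They were chosen by their measured CPM values in the same comparison of high with low glucose that is described below, so their differences between the groups are a description, and the count of them that passed a threshold supports nothing. RNA was sequenced from MDA-MB-157, an established ER-negative human breast cancer cell line that serves here as a single model of such tumors. Cells were plated at 500000 per flask and treated for 48 hours with 25 mM or with 5 mM glucose, called high and low glucose below, and 4 libraries came from each level. The medium was free of serum, all 8 libraries were from the same unmodified line, and low glucose was the control condition. No library with an osmotic control was among the 8, so a higher glucose level and a higher osmolarity cannot be told apart. The labels number the replicates without saying whether they were separate cultures, so the adjusted p-values below measure only the spread between these libraries.

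Inorganic phosphate enters mammalian cells mainly through sodium-coupled carriers and leaves through the exporter XPR1. Pyrophosphate outside the cell arises when ectoenzymes split released ATP, it blocks the growth of calcium phosphate crystals, and alkaline phosphatase breaks it down to phosphate. The same extracellular chain yields AMP, from which the surface enzyme CD73 makes adenosine. In breast tissue these genes are best known for their links to microcalcification and, for CD73, to adenosine in tumors.

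The values are CPM, reads per 1000000 after a scaling between libraries by the trimmed mean of M values. One read was worth between 0.0706 and 0.0889 CPM, which puts 9721649 to 12482542 reads behind the values of a library. Of the high glucose libraries, replicate 1 stood apart from the other 3, with a median absolute log2 deviation of 0.169 over the 14372 genes of at least 1 CPM, and replicate 4 deviated by 0.130. The other 6 libraries deviated by 0.0702 to 0.0919. Without high glucose replicate 1 the log2 changes of the 7 genes moved by at most 0.0174. The line's labelled ER-negative state matched its markers, since ESR1 lay between 0 and 0.170 CPM in the 8 libraries, although PGR was at 4.33 to 5.95 CPM. The 5 markers of the receptor-positive luminal type summed to 68.3 to 70.7 CPM at low and 43.7 to 48.3 CPM at high glucose, mostly ERBB2. ERBB2 fell from 63.6 ± 1.29 to 39.2 ± 2.58 CPM and FOXA1 from 0.882 ± 0.110 to 0.526 ± 0.140 CPM. GATA3 went the other way, from 0.123 ± 0.110 to 1.09 ± 0.268 CPM (limma adjusted p = 0.000466). The epithelial keratins KRT8 and KRT18 were present, KRT19 was at or near 0, and the summed level of the 5 epithelial markers was 360 to 376 CPM at low and 240 to 306 CPM at high glucose. That fall was in KRT8 and KRT18, whereas EPCAM rose from 4.50 ± 0.414 to 6.996 ± 0.445 CPM (limma adjusted p = 0.00104) and CDH1 was at 0.949 ± 0.204 and 0.961 ± 0.454 CPM. The 4 mesenchymal markers summed to 7706 to 7849 CPM at low and 5396 to 5780 CPM at high glucose. Here VIM and FN1 fell, whereas CDH2 rose from 55.2 ± 2.29 to 75.5 ± 1.80 CPM (adjusted p = 4.63e-05) and ZEB1 from 27.0 ± 0.896 to 37.4 ± 4.81 CPM (adjusted p = 0.00541). These 3 marker sums moved with glucose, and their part in the results below was not tested. Of the leukocyte markers, PTPRC was at most 0.178 CPM and LYZ was at 0 in 7 of the 8 libraries. CD68, which is not confined to leukocytes, was at 9.38 to 14.3 CPM and made up most of a leukocyte sum of 9.55 to 13.5 CPM at low and 10.5 to 14.3 CPM at high glucose. The summed level of the 4 endothelial markers was 3.65 to 4.17 CPM at low and 4.07 to 5.42 CPM at high glucose. In bulk RNA, fewer cells that express a gene and less of its RNA per cell cannot be told apart.

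For 6 of the 7 genes RefSeq held the sequence ahead of a start site on GRCh38.p14, with 3 starts for ALPL. The windows of 250 bases ahead of the start are shown for SLC20A1 and ANKH, the 2 genes with the largest increases, and for ENPP1, the better expressed of the 2 genes of opposite direction, 5′ to 3′ on the strand of each gene. Capitals mark matches, on either strand, to the E-box CACGTG or the GC box GGGCGG.
SLC20A1 (chr2:112645689-112645938, plus strand): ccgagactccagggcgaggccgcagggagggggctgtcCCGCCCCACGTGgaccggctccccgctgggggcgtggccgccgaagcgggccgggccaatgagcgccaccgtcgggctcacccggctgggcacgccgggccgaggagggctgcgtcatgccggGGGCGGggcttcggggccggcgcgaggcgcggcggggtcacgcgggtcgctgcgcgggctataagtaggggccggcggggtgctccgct
ANKH (chr5:14871779-14872028, minus strand): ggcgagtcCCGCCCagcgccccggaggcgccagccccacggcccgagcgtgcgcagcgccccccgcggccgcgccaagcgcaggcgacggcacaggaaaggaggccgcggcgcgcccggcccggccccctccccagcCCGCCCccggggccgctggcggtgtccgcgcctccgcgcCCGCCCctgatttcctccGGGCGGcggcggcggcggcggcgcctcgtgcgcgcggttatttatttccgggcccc
ENPP1 (chr6:131807770-131808019, plus strand): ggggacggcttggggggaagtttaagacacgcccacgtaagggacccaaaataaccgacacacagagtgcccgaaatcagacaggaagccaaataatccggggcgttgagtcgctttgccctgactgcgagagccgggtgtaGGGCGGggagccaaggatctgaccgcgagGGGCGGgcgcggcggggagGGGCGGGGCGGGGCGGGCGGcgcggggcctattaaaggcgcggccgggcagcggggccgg
The window of SLC20A1 held 1 E-box, which started 206 bases before the start site and directly followed a GC box at 212 bases. A second GC box lay at 89 bases. The window of ANKH held 4 GC boxes and no E-box. That of ENPP1 held 6 GC boxes, of which those at 60, 55, 50 and 46 bases each overlapped the next, and no E-box. The first ALPL start had E-boxes at 83 and 55 bases and the second had 4 GC boxes, whereas XPR1 with 4 GC boxes and NT5E with 2 had no E-box. The AP-1 element TGANTCA was not among the letters of any of these windows. Among 35116 RefSeq windows of the same length, 6.34% held the E-box, 42.6% the GC box and 6.57% the AP-1 element. These are matches of letters, and no binding was measured.

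Across the 7 genes, 5 were higher and 2 were lower at high glucose. In limma's moderated test with Benjamini-Hochberg adjustment over all 21059 genes, all 7 fell under an adjusted p of 0.05, beside 46.8% of all genes. The 5 with higher levels stand beside 22.0% of genes that passed in that direction, and the 2 with lower levels beside 24.8%. Of the 6 genes with a mean of at least 1 CPM, all 6 had groups that did not overlap, beside 60.0% of the 14372 such genes. These counts follow from how the genes were chosen, and nothing is read from them. Log2 changes are high minus low glucose on the log2(CPM + 1) scale, which understates the change of low genes.

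SLC20A1 (ENSG00000144136.11, chr2:112645939-112663825 on GRCh38.p14) encodes the sodium-phosphate importer PiT1 and was the most strongly expressed of the 7. Its low glucose libraries held 68.8, 66.7, 66.2 and 64.2 CPM, and its high glucose libraries 199, 192, 188 and 188 CPM. Every high glucose library lay far above every low glucose library, and the spread within a group was small. The means were 66.5 ± 1.86 at low and 192 ± 4.97 CPM at high glucose (SD, n = 4 per group), a 2.89-fold difference and a log2 change of 1.51 (SE 0.03). Among the 14372 genes of at least 1 CPM this was the increase of rank 95. Between 779 and 2816 reads per library stood behind these values, and none of its sampled 31-base words was found in another gene.

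SLC20A2 (ENSG00000168575.10, chr8:42416475-42541954) encodes the second importer of the family, PiT2. It was measured at 30.2, 31.8, 32.8 and 33.0 CPM at low glucose and at 43.8, 45.8, 44.3 and 39.3 CPM at high glucose. The groups were apart, with high glucose replicate 4 the nearest to the low group. The means were 31.9 ± 1.29 and 43.3 ± 2.79 CPM, a 1.35-fold difference and a log2 change of 0.43 (SE 0.05). Of its exon bases, 4.33% overlap SMIM19 on the opposite strand, and whether the counting used strand is not given in the sources used here. Per kilobase of canonical transcript, the level of SLC20A1 was 2.37 ± 0.163 times that of SLC20A2 at low glucose and 5.06 ± 0.319 times at high glucose (SD, n = 4), and no low glucose library reached the ratio of any high glucose library. Both importers were higher at 25 mM glucose, SLC20A1 by the larger factor.

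XPR1 (ENSG00000143324.13, chr1:180632022-180890279) encodes the phosphate exporter. Its values were 16.9, 14.9, 17.2 and 14.4 CPM at low glucose and 19.8, 19.6, 19.7 and 23.3 CPM at high glucose. No library of one group reached into the other, but the gap between the groups was narrow and high glucose replicate 4 lay above the other 3. The group means were 15.9 ± 1.42 and 20.6 ± 1.79 CPM, a 1.30-fold difference with a log2 change of 0.36 (SE 0.08), the smallest increase of the 5 in both measures. Without high glucose replicate 4 the log2 change was 0.30. The ratio of importer SLC20A1 to exporter XPR1, per kilobase, was 10.8 ± 0.798 at low and 24.1 ± 2.23 at high glucose. With the union of exons as the length these ratios were 6.83 ± 0.503 and 15.2 ± 1.41.

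**Figure D1:**
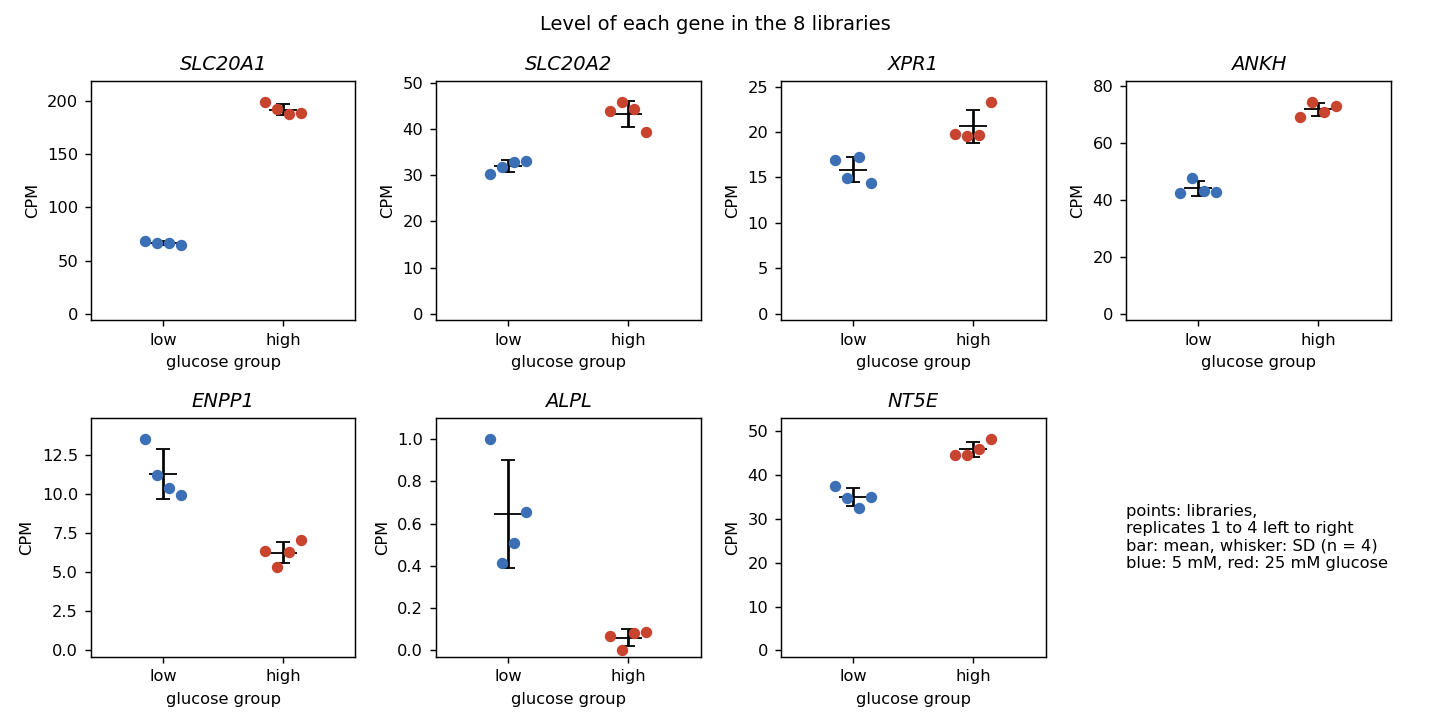
Level of each of the 7 genes in the 8 libraries, in CPM on linear axes, with low glucose in blue, high glucose in red, points for libraries, bars for group means and whiskers for the SD (n = 4). SLC20A1, SLC20A2, XPR1, ANKH and NT5E lie higher in all 4 high glucose libraries, ENPP1 and ALPL lower, and ALPL stays at or below 1.0 CPM throughout.

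ANKH (ENSG00000154122.14, chr5:14704800-14871778) encodes a membrane protein that mediates the release of ATP, pyrophosphate and citrate from cells. It was at 42.3, 47.8, 43.0 and 42.9 CPM at low glucose and at 69.2, 74.3, 70.8 and 73.1 CPM at high glucose. The groups lay well apart, and low glucose replicate 2 was the highest of its group. Low and high glucose averaged 44 ± 2.54 and 71.9 ± 2.25 CPM, a 1.63-fold difference and a log2 change of 0.70 (SE 0.04), the second largest increase of the 7 genes. Its promoter window is the one with 4 GC boxes above.

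ENPP1 (ENSG00000197594.13, chr6:131808020-131895155) encodes the ectoenzyme that splits extracellular ATP into AMP and pyrophosphate. Low glucose libraries held 13.5, 11.2, 10.4 and 9.91 CPM and high glucose libraries 6.35, 5.34, 6.27 and 7.02 CPM. All 4 high glucose values were below all 4 low glucose values, and the low glucose group spread more widely, with replicate 1 at its top. The means were 11.2 ± 1.599 and 6.25 ± 0.691 CPM, 1.80-fold lower at high glucose, with a log2 change of -0.75 (SE 0.11). These values rested on 67 to 162 reads per library. A processed pseudogene on the opposite strand overlaps 0.823% of its exon bases. ANKH and ENPP1 are both sources of extracellular pyrophosphate, and they differed in opposite directions. Their ratio per kilobase was 3.60 ± 0.510 at low glucose and 10.5 ± 1.42 at high glucose. That the ratio did not overlap follows from the separate groups and opposite directions of ANKH and ENPP1, and is no further observation.

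ALPL (ENSG00000162551.14, chr1:21508984-21578410) encodes tissue-nonspecific alkaline phosphatase, which degrades pyrophosphate to phosphate. It was close to the detection limit, with 12, 5, 6 and 9 reads in the low glucose libraries and 1, 0, 1 and 1 reads in the high glucose libraries. In CPM these were 1.0, 0.414, 0.510 and 0.656 at low and 0.0706, 0, 0.0825 and 0.0889 at high glucose. The groups did not overlap, but each high glucose library held at most a single read. Summed over the libraries, 32 reads against 3 gave a level 10.8 times as high at low glucose after scaling by depth, with a 95% exact interval from 3.37 to 55.0 that covers counting error only. The log2 change was -0.62 (SE 0.10) with a pseudocount of 1 and -2.20 with a pseudocount of 0.1, so its size depends on that choice. In a library the CPM of 3 reads was 0.212 to 0.267, above each high glucose value. The osteoblast products BGLAP and IBSP, whose cells typically carry much ALPL, were at most 0.395 and 0.167 CPM in any library. Of the sampled words of BGLAP, 77.1% occur in another gene, so its level is uncertain. RUNX2, a transcription factor of the osteoblast lineage, was at 13.3 to 16.99 CPM at low and 19.5 to 20.3 CPM at high glucose.

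NT5E (ENSG00000135318.12, chr6:85450083-85495784) encodes CD73, the surface enzyme that removes phosphate from extracellular AMP and leaves adenosine. It was at 37.5, 34.9, 32.4 and 35.0 CPM at low glucose and at 44.5, 44.6, 45.9 and 48.3 CPM at high glucose. Each high glucose library exceeded each low glucose library. Low glucose averaged 35.0 ± 2.07 and high glucose 45.8 ± 1.73 CPM, a 1.31-fold difference and a log2 change of 0.38 (SE 0.05). ENPP1, which makes AMP from ATP, and NT5E, which consumes it, differed in opposite directions, and the ratio of NT5E to ENPP1 per kilobase was 6.56 ± 0.648 at low and 15.4 ± 1.40 at high glucose.

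**Figure D2:**
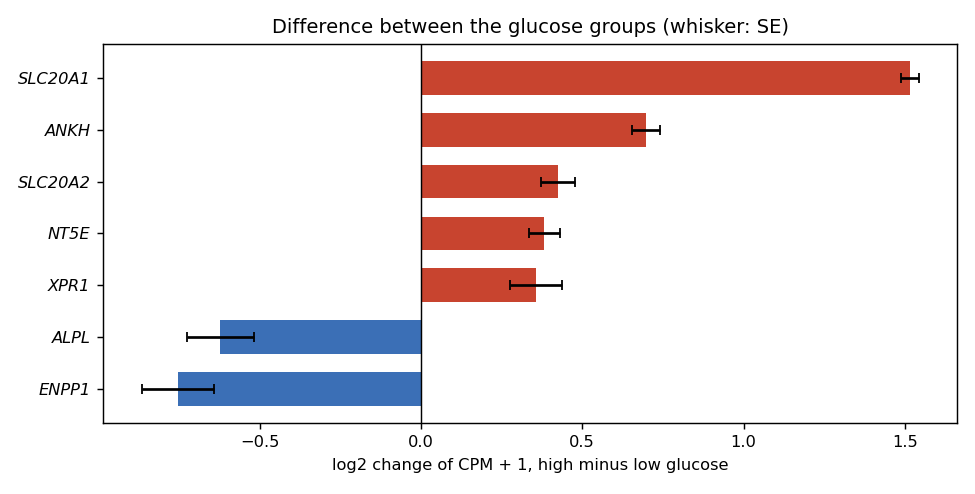
Log2 change of CPM + 1, high minus low glucose, for the 7 genes, with the standard error of the fit as whiskers (n = 4 per group). SLC20A1 leads at 1.51, ANKH follows at 0.70, SLC20A2, NT5E and XPR1 lie between 0.36 and 0.43, and ALPL and ENPP1 lie at -0.62 and -0.75.

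To compare levels between genes, CPM were divided by the length of the canonical transcript in kilobases. At low glucose the order of mean levels was SLC20A1 at 20.2, NT5E at 9.82, SLC20A2 at 8.51, ANKH at 5.36, XPR1 at 1.87, ENPP1 at 1.51 and ALPL at 0.254 CPM per kilobase. XPR1 and ENPP1 overlapped between libraries in this order, whereas all other neighbors were apart. At high glucose the order was the same, with SLC20A1 at 58.2, NT5E at 12.9, SLC20A2 at 11.5, ANKH at 8.76, XPR1 at 2.43, ENPP1 at 0.840 and ALPL at 0.0239 CPM per kilobase, and no neighbors overlapped. With the union of all annotated exons as the length the order was kept and XPR1 and ENPP1 were apart at low glucose as well, but the levels were lower, for SLC20A1 12.1 at low and 34.9 at high glucose. The levels of SLC20A2, ANKH and ENPP1 at low glucose were then 4.97, 3.47 and 0.984 CPM per kilobase, each more than 1.5 times lower than with the canonical length.

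**Figure D3:**
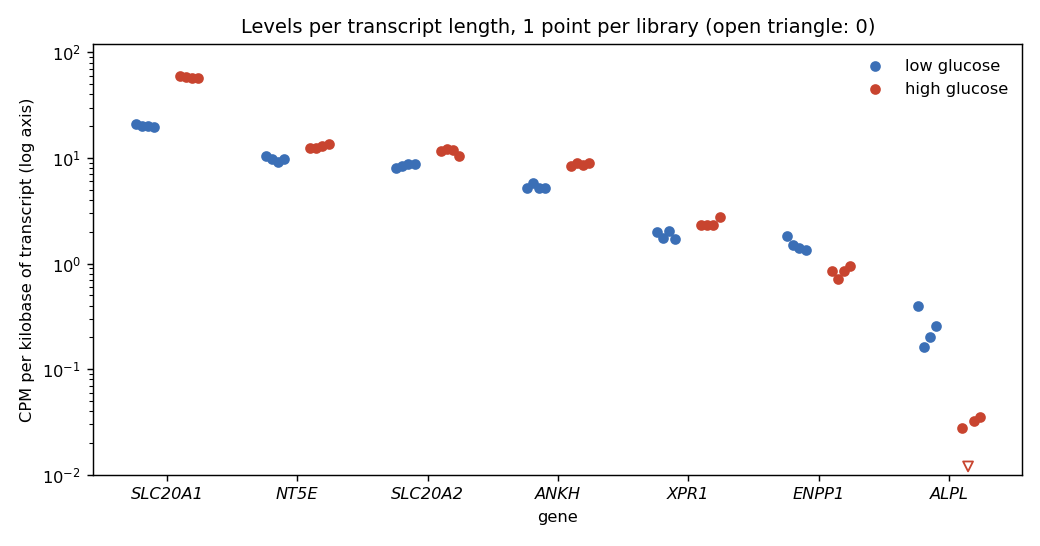
Level of each gene in CPM per kilobase of canonical transcript on a log axis, 1 point per library, with low glucose in blue and high glucose in red. The order of the genes is the same in both groups, from SLC20A1 at 20.2 and 58.2 on average down to ALPL at 0.254 and 0.0239, and the open triangle stands for the library in which ALPL was 0.

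The genes with the most similar pattern were read from 11291 other genes with a mean of at least 5 CPM, by Pearson's r of log2(CPM + 1) over the 8 libraries. These correlations are descriptions, since all genes share the same 2 groups and the same libraries. For SLC20A1 the nearest were AMD1, an enzyme of polyamine synthesis, and the cytokine gene IL11, each at r = 0.999, and 1817 genes reached 0.95 with it. For ANKH they were WHAMM, an actin nucleation factor, and SPRED1, an inhibitor of Ras signaling, each at 0.996, with 1514 genes at 0.95 or above. For NT5E the nearest genes were ZNF121 at 0.994 and AC010733.2 at 0.991, with 714 genes at that level. SLC20A2 was nearest to 2 genes of lysosomal membrane transporters, SLC17A5 at 0.994 and CLCN7 at 0.992, with 485 genes at 0.95 or above. ENPP1 was nearest to the small GTPase gene RAB13 at 0.992 and to CFAP36 at 0.991, with 223 genes. XPR1 had the fewest such genes, 40, led by the histone methyltransferase gene SUV39H2 at 0.985 and the metalloproteinase inhibitor gene TIMP3 at 0.982. ALPL was left out because its mean was under 1 CPM.

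Around these 7 genes, 5 lists of related genes were read from the same fit, and their adjusted p-values are from limma over all 21059 genes. Of the phosphate carriers in mitochondria, the endoplasmic reticulum and the apical membrane, 10 of 16 listed genes were in the table and 8 had at least 1 CPM. In this list 5 of 10 passed, 1 higher and 4 lower, a share of 50% with a median log2 change of -0.13, beside 46.8% and a median of -0.01 over all genes. SLC25A25, a calcium-regulated mitochondrial carrier of ATP-Mg and phosphate, rose from 25.1 ± 1.72 to 70.3 ± 3.29 CPM (log2 change 1.45, SE 0.06, adjusted p = 2.97e-06). Of its sampled words, 18.5% occur in another gene. Its relative SLC25A23 fell from 142 ± 0.882 to 88.1 ± 2.33 CPM (-0.69, SE 0.02, adjusted p = 1.51e-06). Carriers with the same described exchange differed in direction. SLC37A4, which moves glucose-6-phosphate into the endoplasmic reticulum in exchange for phosphate, fell from 23.3 ± 1.93 to 8.15 ± 1.30 CPM (-1.42, SE 0.11, adjusted p = 4.56e-05). SLC25A10, the mitochondrial dicarboxylate carrier, fell from 12.0 ± 0.923 to 7.60 ± 1.70 CPM (-0.61, SE 0.14, adjusted p = 0.00861), but 62.0% of its sampled words occur in another gene, so its reads are uncertain.

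XPR1 is known to be gated by inositol pyrophosphates, and the enzymes that make and remove these formed the second list, together with KIDINS220. All 14 listed genes had at least 1 CPM, and 9 passed (64.3%), 7 higher and 2 lower. Of all genes of at least 1 CPM, 8927 of 14372 passed. The median log2 change of the list was 0.30, beside -0.04 over those 14372 genes. Over all 21059 genes, 22.0% passed as higher and 24.8% as lower. The kinase genes ITPK1 and IPMK rose, ITPK1 from 45.5 ± 0.431 to 71.8 ± 5.85 CPM (0.64, SE 0.06, adjusted p = 9.57e-05). IPMK rose from 18.5 ± 0.360 to 25.4 ± 1.42 CPM (0.44, SE 0.04, adjusted p = 0.000145). KIDINS220, no enzyme of this chain but a scaffold protein known as a partner of XPR1, rose from 217 ± 6.16 to 342 ± 44.7 CPM (0.65, SE 0.09, adjusted p = 0.00117), with high glucose replicate 1 lowest of its group at 279 CPM. NUDT4, a hydrolase that removes these pyrophosphates, rose from 92.9 ± 2.62 to 133 ± 2.29 CPM (0.51, SE 0.02, adjusted p = 6.33e-06), although 60.0% of its sampled words are shared with another gene. The 2 genes that fell, named after their values were seen, were PPIP5K1 and PPIP5K2, the kinases that add the last pyrophosphate group. Their log2 changes were -0.46 (SE 0.08, adjusted p = 0.00236) and -0.29 (SE 0.04, adjusted p = 0.00140), and 54.7% of the words of PPIP5K1 are shared. IPPK, also named after its values were seen, had the largest log2 change of the list, 0.69 (SE 0.10, adjusted p = 0.00118). Of the sampled words, 69.3% for IPPK and 16.5% for NUDT11, which also rose, occur in another gene. For NUDT3, which did not pass, this share was 95.8%.

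Of 16 listed genes for hydrolysis of pyrophosphate and phosphate esters, a list that also holds ABCC6, a transporter linked to ATP release, 13 were in the table and 9 had at least 1 CPM. Of the 13, 7 passed (53.8%), 0 higher and 7 lower, with a median log2 change of -0.33. Over all genes 46.8% passed, 22.0% higher and 24.8% lower, with a median of -0.01. ENPP1 and ALPL, described above, are not in the count of this list. ENPP2, a relative of ENPP1 that acts on lysophospholipids as autotaxin, fell from 49.1 ± 3.49 to 27.3 ± 1.36 CPM (-0.82, SE 0.06, adjusted p = 3.25e-05). PPA2, the mitochondrial inorganic pyrophosphatase, fell from 37.3 ± 0.831 to 23.9 ± 1.54 CPM (-0.62, SE 0.05, adjusted p = 4.24e-05). The intracellular phosphatase genes PRUNE1 and LHPP fell too, PRUNE1 from 24.6 ± 0.568 to 17.4 ± 1.45 CPM (-0.48, SE 0.06, adjusted p = 0.000446). LHPP fell from 9.28 ± 1.33 to 3.96 ± 0.733 CPM (-1.05, SE 0.13, adjusted p = 0.000558). The other 3 that passed, named after their values were seen, were ENPP5, ABCC6 and PHOSPHO2, low genes with means of 2.18, 0.999 and 1.69 CPM at low and 1.19, 0.597 and 0.882 CPM at high glucose. The glucose groups of ENPP5 and of PHOSPHO2 overlapped, and those of ABCC6 did not. Of the sampled words, 28.2% for PHOSPHO2 and 19.6% for ABCC6 occur in another gene. The count for this list was 4 without low glucose replicate 4 and also 4 in a fit with replicate number as a block, with all of these lower. With a trend on transcript length removed, 7 of 9 passed, 6 lower and 1 higher, PPA1, at a log2 change of 0.13 (adjusted p = 0.0141) against 0.02 (adjusted p = 0.811) without that step. Of the sampled words of PPA1, 30.7% occur in another gene.

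The list of extracellular nucleotide and adenosine genes, the setting of ENPP1 and NT5E, had 25 of 29 genes in the table and 14 of at least 1 CPM. Of the 25, 9 passed (36%, beside 46.8% of all genes), 3 higher and 6 lower, with a median log2 change of -0.03. PANX1, a channel through which cells release ATP, rose from 24.5 ± 1.09 to 44.3 ± 2.71 CPM (0.83, SE 0.05, adjusted p = 1.88e-05). The ATP-gated channel genes P2RX4 and P2RX7 fell, P2RX4 from 22.8 ± 1.13 to 12.3 ± 1.18 CPM (-0.84, SE 0.07, adjusted p = 8.44e-05). P2RX7 fell from 20.3 ± 1.29 to 12.0 ± 1.34 CPM (-0.72, SE 0.08, adjusted p = 0.000346), with 39.7% of its words shared with another gene. SLC29A2, an equilibrative transporter of adenosine and other nucleosides, fell from 6.15 ± 0.410 to 2.001 ± 0.295 CPM (-1.26, SE 0.09, adjusted p = 4.06e-05).

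Genes of mineralization and of phosphate and vitamin D hormones made up the last list, with 20 of 26 in the table and 10 of at least 1 CPM. Of the 20, 9 passed (45%, beside 46.8% of all genes), 6 higher and 3 lower, with a median log2 change of 0.18. MGP, an extracellular inhibitor of calcification, fell from 12.99 ± 0.118 to 4.46 ± 0.294 CPM (-1.36, SE 0.05, adjusted p = 3.36e-06). VDR, the vitamin D receptor gene, rose from 2.93 ± 0.482 to 8.84 ± 1.63 CPM (1.32, SE 0.15, adjusted p = 0.000322). PTHLH, which encodes the parathyroid hormone-related protein, rose from 1.79 ± 0.147 to 3.82 ± 0.399 CPM (0.79, SE 0.08, adjusted p = 0.000204). TNFRSF11B, the gene of the decoy receptor osteoprotegerin, rose from 3.12 ± 0.501 to 7.09 ± 0.821 CPM (0.98, SE 0.11, adjusted p = 0.000392). Besides MGP, the genes that passed as lower, named after their values were seen, were the receptor genes PTH1R and FGFR1. PTH1R fell from 2.85 ± 0.526 to 0.586 ± 0.413 CPM (-1.30, SE 0.20, adjusted p = 0.00149). FGFR1 fell from 153 ± 5.34 to 143 ± 1.82 CPM (-0.10, SE 0.03, adjusted p = 0.0183). The shares of the 5 lists lay between 36% and 64.3%, beside 46.8% of all genes. Among genes of at least 1 CPM, 8927 of 14372 passed in the same fit. Of such genes, 5 of 8 phosphate carriers passed, 9 of 14 inositol pyrophosphate genes and 6 of 9 hydrolysis genes. For the nucleotide list it was 6 of 14, and for the mineralization list 9 of 10. No list was tested against the rest.

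**Figure D4:**
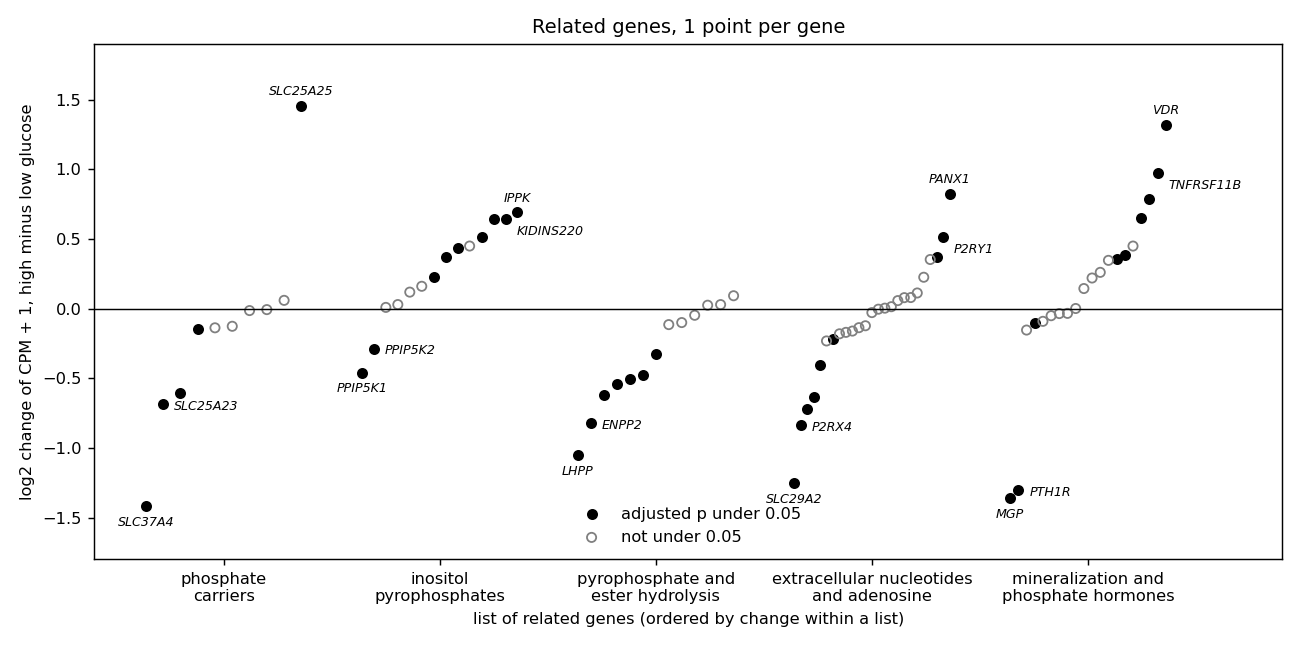
Log2 change of CPM + 1, high minus low glucose, for every measured gene of the 5 lists, 1 point per gene ordered by change within its list, filled where limma's adjusted p was under 0.05. In this fit, with no length trend removed, the filled points of the hydrolysis list all lie below 0. Those of the inositol pyrophosphate list lie mostly above, and the labels name genes at either end of a list that passed. Over all genes, 22.0% passed as higher and 24.8% as lower.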

How the data were processed

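RNA of MDA-MB-157 cells was sequenced in 8 libraries, and the authors deposited a table of CPM values scaled by TMM in edgeR, per the labels and methods. The labels name hg38. The methods for tumors, xenografts and cultured cells together name TopHat, hg19 and a stranded kit, and the read counter and its use of strand are not given in the sources used here. A described filter of 0.5 CPM in 2 samples was not visible in the table, in which 856 genes were 0 throughout. Of 21077 lines, 18 Y-chromosome copies identical to their X counterparts were left out, and 21059 genes were tested.

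High and low glucose (4 libraries each) were compared with limma 3.58.1 in R 4.3.3 on log2(CPM + 1), without covariates, 2-sided, with a mean-variance trend and Benjamini-Hochberg adjustment over all genes. The script was tested on simulated data. In each library the most frequent value above 0 and below 1 CPM was taken as the CPM of 1 read. With it, 72.0% to 73.3% of values below 200 reads came out whole within 0.005 reads. Named genes were the 7 genes, in each of 5 related lists the up to 4 genes of smallest adjusted p with a mean of at least 1 CPM, and the 2 genes of most similar pattern. The 7 genes and all lists were chosen with earlier results of these data known. Lengths came from GENCODE release 44 on GRCh37, positions and promoters from RefSeq on GRCh38.p14. Sharing of sequence was read from 31-base words taken every 10 bases. Alternatives were a pseudocount of 0.1, genes of at least 1 CPM, median-of-ratios scaling, equal totals, a replicate block, removal of a length trend, and leaving out each library.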

Additional observations from a re-analysis of the deposited data

Results flagged for a closer look

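Among 64 groups of 4 values that were examined, 4 held a library far from the other 3, where chance gives about 1 in 20 groups, or 3.2 of 64. XPR1 was at 23.3 CPM in high glucose replicate 4, with the other 3 between 19.6 and 19.8 CPM. ANKH was at 47.8 CPM in low glucose replicate 2, with the other 3 between 42.3 and 43.0 CPM. The ratio of ANKH to ENPP1 per kilobase was 2.84 in low glucose replicate 1, with the other 3 between 3.76 and 3.93. Low glucose replicate 4 had 12104244 reads, against 10389651 to 10622968 in the others of its group.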

How the results depend on the processing

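Over 14 alternatives, the log2 changes of the 7 genes and the 20 named related genes kept their direction in all 376 values. Both sets were chosen by their values in this comparison, so this is a description and no sign of stability. For ALPL, 2 alternatives gave no value because its mean is under 1 CPM. The count that moved was that of pyrophosphate and ester hydrolysis, 7 as reported and 4 with the replicate block. Leaving out 1 library at a time gave 4 to 6, the lowest without low glucose replicate 4, and the cause was not tested. Replicate numbers share only a number: deviations of same-numbered libraries correlated at 0.07, -0.03, 0.01 and -0.04, and not every library correlated best with its own number. With the replicate block 8921 of all genes passed, against 9849. Depth limited ALPL, with 0 to 12 reads per library.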
